A study of Mus musculus with 9 samples.

Results

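Bulk RNA sequencing of metastases in the epididymal fat, called proximal metastases here, was compared with that of primary prostate tumours in mice. The comparison takes every library with either tissue label, 3 proximal and 3 primary, which is 6 of the 9 libraries of the series. All groups, the primary tumours included, came from C57BL/6 mice of about 9 to 10 months whose engineered changes include Ctnnb1pc(ex3)delta/+, so no library has 2 intact Ctnnb1 alleles as a control. The labels do not name the promoter behind "pc" and do not say which tumour and metastasis share a mouse, although they describe the samples as matched. The other 3 libraries, distal metastases of the same genotype whose label names the diaphragm in one field and the lung in another, share the estimate of the spread and serve to test whether a proximal value differed between metastatic sites. RNA was taken from frozen tissue, and whole-number read counts per gene were deposited.

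Beta-catenin, the product of Ctnnb1, links cadherins to the cytoskeleton at cell junctions and, once it is stabilised by loss of exon 3, drives transcription of Wnt target genes with TCF/LEF factors. Prostate glands consist of secretory luminal cells, which carry tight junctions and a specialised apical surface, over a layer of basal cells.

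Total counts lay between 28334730 and 40084408 in the 6 libraries. Levels are given as CPM, the count scaled to a common library size with trimmed-mean (TMM) adjustment of the totals. The spread per gene, as the SD of log2(CPM + 1), had a median of 0.125 among the 3 proximal libraries, against 0.437 among the primary libraries. Primary 1 stood apart from the other primary libraries and near the metastases: its value lay inside the range of the 3 proximal libraries for 52.5% of the 18204 tested genes, against 13.3% for primary 2 and 19.3% for primary 3. Its chi-square per gene was 47.6 to 64.4 against proximal libraries, which differed among themselves by 36.5 to 59.1, and 336 to 828 against the other primary libraries. Primary 2 had 0.131% of its counts on mitochondrially encoded genes, against 0.924% to 1.18% in the other 5. Primary 3 held 10566 CPM of seminal vesicle genes, against 4.4 to 30.9 CPM in the other 5. The counts of called genes below are therefore also given without primary 1. Primary 1 was left out because it lay nearest to the metastases, so more calls were to be expected in that fit. The counts of that fit are a description and no independent evidence. Of the 19009 genes tested in it, 14.9% were called lower and 13.8% higher. The cause of the likeness of primary 1 to the metastases was not tested. Nothing in the labels shows the libraries to be independent animals, so p-values measure only the spread between these samples.

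The 9 genes called between proximal metastases and primary tumours in the fit of all 9 libraries were all lower in the metastases. Several encode proteins of the surface of glandular epithelium. Of the 18204 genes tested with edgeR's quasi-likelihood test, 9 were called lower at an adjusted p below 0.05, which is 0.0494% of the genes tested, and none was called higher. At an unadjusted p below 0.05 there were 2611 lower genes (14.3%) and 702 higher ones (3.86%). The called genes are Ceacam1, Klf4, Fxyd4, B3gnt7, Atp12a, Cds1, Mgat4a, Adgrg7 and Tspan1. In each, all 3 proximal libraries lay below all 3 primary libraries, primary 1 included. Over all genes tested such a separation was found for 10.7%.

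Ceacam1 encodes an adhesion glycoprotein of epithelial cell membranes and lies on the minus strand of chromosome 7 (GRCm38, 25461707 to 25477603). It stood at 54.0, 54.2 and 90.0 CPM in primary 1, 2 and 3 and at 2.38, 3.37 and 3.53 CPM in proximal 1, 2 and 3. The primary mean was 21.4 times the proximal mean, and the log2 change was -4.42 (SE 0.36, edgeR adjusted p = 0.0278). Primary 1 was as high as primary 2, although it resembled the metastases over most other genes.

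Klf4, on the minus strand of chromosome 4 (55527143 to 55532466), encodes a zinc-finger transcription factor of epithelial differentiation that binds GC-rich sites. Its levels were 64.3, 51.1 and 88.0 CPM in the primary tumours and 14.5, 15.6 and 14.9 CPM in the proximal metastases. The 3 metastases were nearly equal and the groups were far apart, with a log2 change of -2.18 (SE 0.22, edgeR adjusted p = 0.0295). Klf4 was the only transcription factor gene among the 9 called.

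A pair of the called genes encode ion transport proteins. Fxyd4, on chromosome 6 (117933559 to 117937692), encodes a small membrane regulator of the sodium pump. It stood at 13.7, 7.89 and 39.7 CPM in the primary tumours and at 0.104, 0.102 and 0.0734 CPM in the proximal metastases (log2 fold change -7.72, SE 0.77, edgeR adjusted p = 0.0295). Atp12a encodes the catalytic subunit of a proton-potassium pump of epithelial surfaces and lies on chromosome 14 (56365068 to 56388550). Its primary levels were 37.6, 8.51 and 14.0 CPM, a total of 2031 counts, and its proximal levels were 0.0522, 0.0255 and 0 CPM, a total of 3 counts. The ratio of primary to proximal was 868, with an exact 95% Poisson interval of 297 to 4212 that covers counting error only (edgeR adjusted p = 0.0295). Atp12a was highest in primary 1, the library closest to the metastases over all genes. An exon of Atp12a overlaps Gm10873 and one of B3gnt7 overlaps Gm28626, and the strand setting of the counting is not given in the sources used here, so reads of these overlapping genes cannot be told apart.

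Sugar and lipid enzymes made up another 3 of the called genes. B3gnt7, on chromosome 1 (86302832 to 86307305), adds N-acetylglucosamine to galactose-ended sugar chains. It stood at 72.4, 19.2 and 87.1 CPM in the primary tumours and at 0.522, 0.817 and 0.734 CPM in the proximal metastases (log2 fold change -6.42, SE 0.65, edgeR adjusted p = 0.0295). Mgat4a, on the same chromosome (37439340 to 37541016), encodes a Golgi enzyme that branches N-linked sugar chains. Its primary levels of 93.0, 86.6 and 90.1 CPM and its proximal levels of 47.4, 46.0 and 47.1 CPM gave the smallest fold of the 9 genes, with the tightest groups (log2 fold change -0.94, SE 0.11, edgeR adjusted p = 0.0411). Cds1, on chromosome 5 (101765130 to 101823858), makes CDP-diacylglycerol, a precursor of phosphatidylinositol. It stood at 19.04, 48.7 and 38.5 CPM in the primary tumours against 1.41, 2.48 and 1.47 CPM in the metastases (log2 fold change -4.31, SE 0.45, edgeR adjusted p = 0.0295). For each of these enzymes the lowest primary library exceeded the highest proximal one.

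The remaining called genes encode membrane proteins. Adgrg7, on chromosome 16 (56724609 to 56795855), encodes a receptor of the adhesion GPCR family. It stood at 39.6, 197 and 217 CPM in the primary tumours and at 1.33, 0.842 and 0.294 CPM in the metastases (log2 fold change -7.52, SE 0.86, edgeR adjusted p = 0.0454). Tspan1, a tetraspanin gene on chromosome 4 (116161869 to 116167601), stood at 123, 579 and 298 CPM against 7.42, 5.87 and 12.3 CPM (log2 fold change -5.29, SE 0.61, edgeR adjusted p = 0.0455). Primary 1 was the lowest primary library for both genes and still exceeded every metastasis.

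**Figure D1:**
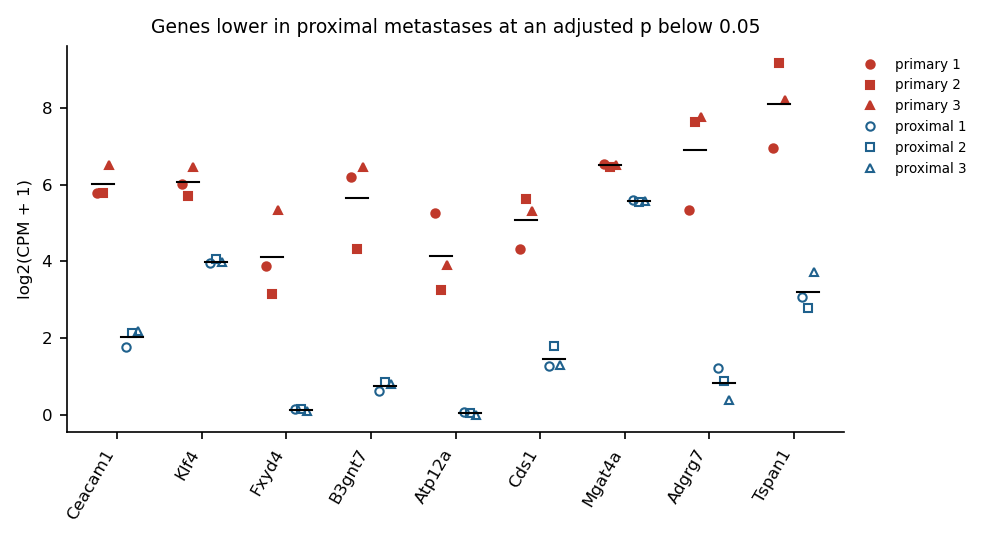
Levels of the 9 called genes in the 3 primary (filled symbols) and 3 proximal (open symbols) libraries, as log2(CPM + 1) on the vertical axis; horizontal bars are group means of these log values. The groups do not overlap for any of the 9 genes, and the Mgat4a groups, at 86.6 to 93.0 and 46.0 to 47.4 CPM, lie closest together.

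These calls depended on the tool and on single libraries. DESeq2 called 1350 genes lower (7.42%) and 136 higher (0.747%), and voom with a variance weight per group called 37 lower (0.203%) and none higher, the 9 genes being among the lower ones of both. Without primary 1, 5447 of 19009 genes were called, 2825 lower (14.9%) and 2622 higher (13.8%), and all 9 genes were among the lower ones, with edgeR adjusted p values between 0.000653 and 0.00198. Without any one of the proximal libraries, or without distal 1 or distal 2, no gene was called, and the highest adjusted p that any of the 9 genes reached in such a fit was 0.406. Their log2 fold changes kept their sign in every fit that left out a library. Leaving out 1 library moved the fold most for Atp12a (-8.58 without primary 1 and -10.27 without proximal 1), Fxyd4 (-6.80 without primary 3) and Tspan1 (-4.63 without primary 2), and least for Mgat4a (-0.97 to -0.90).

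In the test of distal against proximal metastases, the 9 genes gave log2 differences from -0.90 for Adgrg7 to 1.20 for Fxyd4, each at an edgeR adjusted p of 0.99999. That comparison called no gene out of 18204 (375 genes, 2.06%, at an unadjusted p below 0.05; 85 genes with DESeq2). Ceacam1 stood at 2.63, 2.69 and 4.67 CPM and Klf4 at 17.5, 13.9 and 16.6 CPM in distal 1, 2 and 3. No difference in these genes between the metastatic sites was detectable with 3 libraries each.

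Promoter sequence is shown for 4 called genes because one of them, Klf4, encodes a factor of the KLF family and the other 3 hold a match to the KLF motif before their start. RefSeq promoters (GRCm38.p6) matched 8 of the 9 called genes, Atp12a being the one without an entry. The motif GGGNGTGG was searched on both strands of the 250 bases before each start and was found in 4 of the 9 promoters of these 8 genes, while 15.9% of 32851 RefSeq promoters held it. Counted by gene, 4 of the 8 (B3gnt7, Ceacam1, Fxyd4 and Mgat4a) had a match in at least 1 promoter, against 17.9% of 27025 genes. Mgat4a has 2 RefSeq starts, and its match lies before the inner one, not before the start of the gene. The windows of B3gnt7 and Fxyd4 also lie inside the gene positions given above, because their RefSeq starts do. Among the genes with a match, only Ceacam1 has it outside those positions. CTTTGAT (TCF/LEF), CCGGAAG (ETS) and AACCNGGTT (GRHL), searched in the same way, were found in none of the 9 promoters and in 3.21%, 6.91% and 0.240% of all promoters. No match to the KLF motif overlapped one of the others. Each sequence below is written 5′ to 3′ on the gene's own strand and ends at the base before the start, with the match in capitals. The windows are chr7:25477626-25477875 (minus) for Ceacam1, chr6:117937336-117937585 (minus) for Fxyd4, chr1:86302971-86303220 (plus) for B3gnt7 and chr4:55532476-55532725 (minus) for Klf4.
Ceacam1: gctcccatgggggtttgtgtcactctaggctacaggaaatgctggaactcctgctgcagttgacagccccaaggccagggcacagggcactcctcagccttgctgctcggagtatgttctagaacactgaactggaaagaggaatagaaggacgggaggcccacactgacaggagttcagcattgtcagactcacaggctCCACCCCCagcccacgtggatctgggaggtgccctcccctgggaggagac
Fxyd4: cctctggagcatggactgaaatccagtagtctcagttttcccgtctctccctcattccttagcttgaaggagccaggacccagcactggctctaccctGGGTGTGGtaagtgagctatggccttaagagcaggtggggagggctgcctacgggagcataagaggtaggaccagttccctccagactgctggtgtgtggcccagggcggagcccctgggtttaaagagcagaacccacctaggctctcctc
B3gnt7: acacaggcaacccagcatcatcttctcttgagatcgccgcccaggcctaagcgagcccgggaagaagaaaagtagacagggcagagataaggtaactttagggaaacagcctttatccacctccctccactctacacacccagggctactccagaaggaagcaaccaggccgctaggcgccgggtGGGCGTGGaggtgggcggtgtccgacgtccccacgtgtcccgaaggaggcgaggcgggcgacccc
Klf4: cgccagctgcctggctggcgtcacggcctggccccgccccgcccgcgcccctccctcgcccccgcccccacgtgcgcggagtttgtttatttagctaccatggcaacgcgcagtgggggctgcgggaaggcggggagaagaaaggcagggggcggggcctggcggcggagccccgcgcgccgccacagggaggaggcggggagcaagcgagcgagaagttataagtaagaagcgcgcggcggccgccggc
The match begins 50 bases before the start in Ceacam1, where it lies on the opposite strand, 152 bases before it in Fxyd4 and 65 bases before it in B3gnt7. A match is a string of letters and was not tested for binding.

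Below the called genes, the next 10 lower genes were chosen by rank of p. Only genes without overlap between groups and with a primary mean of at least 10 CPM were taken. Their edgeR adjusted p values lay between 0.0504 and 0.0606, just outside the threshold. Those described here are Slc6a8, Pof1b, Slc6a14, Wfdc2, Sparcl1, Cldn3, Hoxb13, Cldn7 and Slc37a1. The claudin genes Cldn3 and Cldn7 encode tight junction strands, and Pof1b an actin-binding protein of epithelial junctions. Cldn3 stood at 42.8, 402 and 297 CPM in the primary tumours and at 1.98, 2.81 and 4.48 CPM in the proximal metastases (log2 fold change -6.32, SE 0.84, edgeR adjusted p = 0.0504), with an exon overlapping Wbscr25. Cldn7 stood at 50.5, 268 and 133 CPM against 2.35, 5.26 and 6.32 CPM. In both, primary 1 was the lowest primary library. That it lay above every metastasis follows from the choice of genes without overlap.

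Hoxb13, a homeobox gene that marks prostate epithelium, stood at 44.5, 222 and 68.4 CPM in the primary tumours and at 4.94, 4.13 and 3.38 CPM in the metastases (log2 fold change -4.75, SE 0.63, edgeR adjusted p = 0.0504). Slc6a8, the creatine transporter gene, had tight groups of 71.9, 79.7 and 78.8 CPM against 24.6, 24.1 and 27.9 CPM (log2 fold change -1.59, SE 0.19, edgeR adjusted p = 0.0504). Slc6a14, an amino acid transporter gene, stood at 36.0, 7.15 and 28.7 CPM against 0.104, 0 and 0.0245 CPM. None of these 10 genes was called, and without primary 1 all 10 were called lower, at edgeR adjusted p values between 0.000363 and 0.00420. That fit called 14.9% of all genes lower. The 10 genes had been chosen for a low p and groups that did not overlap, so this count is no independent evidence.

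No gene was called higher in the proximal metastases. The higher gene of lowest p with a proximal mean of at least 10 CPM and no overlap between groups was H19, an imprinted long noncoding RNA of fetal tissues, on chromosome 7 (142575529 to 142578143). It stood at 15.4, 6.72 and 9.51 CPM in the primary tumours and at 36.9, 63.0 and 67.5 CPM in the metastases (log2 fold change 2.40, SE 0.35, edgeR adjusted p = 0.0668). Every metastasis held more than any primary tumour, as was found for 8.68% of all genes. The distal metastases, at 60.4, 51.1 and 45.7 CPM, gave a log2 difference from the proximal ones of -0.09 (SE 0.33, edgeR adjusted p = 0.99999).

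The other 9 genes chosen in that way had edgeR adjusted p values up to 0.153. Psat1, an enzyme of serine synthesis, stood at 156, 97.0 and 103 CPM in the primary tumours and at 245, 258 and 184 CPM in the proximal metastases (log2 fold change 0.95, SE 0.22, edgeR adjusted p = 0.137). Cited1, a transcriptional co-regulator gene, stood at 9.48, 1.99 and 4.52 CPM against 15.8, 29.1 and 18.7 CPM. For both genes, primary 1 was the primary library nearest to the metastases. Ibsp, which encodes bone sialoprotein, a matrix protein of mineralising tissue, stood at 1.45, 0.156 and 0.272 CPM against 11.2, 15.3 and 3.82 CPM. Ctrb1, a pancreatic digestive enzyme gene, held 2 counts over the primary libraries and 1671 over the proximal ones, of which proximal 2 alone reached 39.0 CPM. Also among them were Rchy1, H2-T-ps, Pls3 and Lynx1, with log2 fold changes of 0.91, 1.86, 0.76 and 0.56. Without primary 1, all 10 were called higher, at edgeR adjusted p values between 0.00139 and 0.0349, in a fit that called 13.8% of all genes higher. As these genes were chosen for a low p and groups that did not overlap, this count is no independent evidence.

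**Figure D2:**
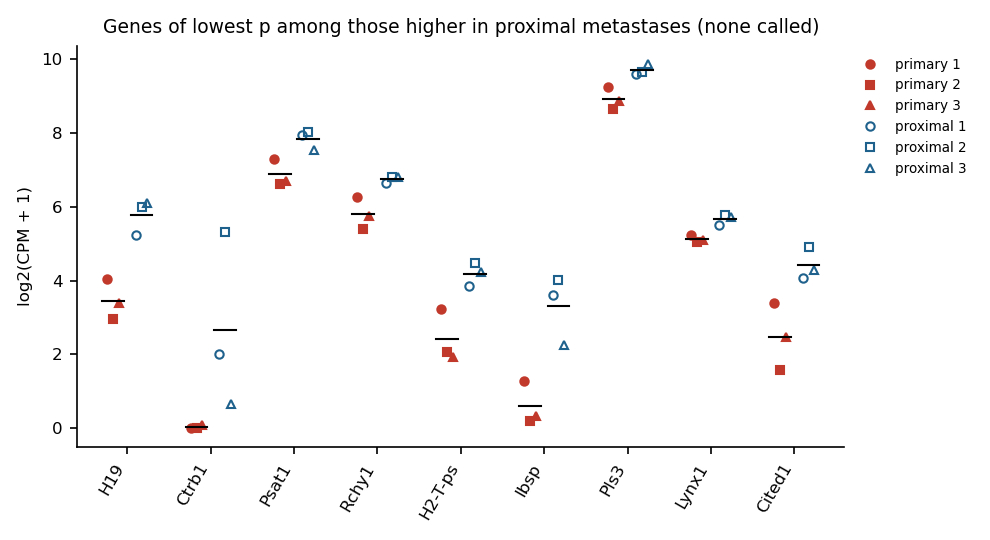
Levels of 9 of the 10 genes of lowest p among those higher in the proximal metastases, as log2(CPM + 1) on the vertical axis, with filled symbols for primary and open symbols for proximal libraries and bars for the group means of the log values. No gene was called; for H19 the libraries lie at 6.72 to 15.4 CPM and 36.9 to 67.5 CPM, and for Ctrb1 proximal 2 stands alone at 39.0 CPM.

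Ctnnb1, the gene of the engineered allele, was read in every library. It stood at 4399, 937 and 1771 CPM in the primary tumours and at 4398, 3626 and 4961 CPM in the proximal metastases (log2 fold change 0.87, SE 0.50, edgeR adjusted p = 0.344). Primary 1 lay within the range of the metastases, and primary 2 and 3 lay well below it. Without primary 1 it was called higher, by 1.70 on the log2 scale (SE 0.32, edgeR adjusted p = 0.00961). Counts per gene do not show which allele a read came from, so these levels do not check the exon 3 deletion. Fewer cells of a type and less RNA per cell cannot be told apart in bulk samples.

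Transcripts of Wnt and beta-catenin target genes were abundant in the metastases. The list summed to 20562, 19573 and 19416 CPM in proximal 1, 2 and 3, to 16921 CPM in primary 1 and to 6746 and 8070 CPM in primary 2 and 3. Wif1 and Apcdd1 alone stood at 5433 and 4442 CPM in proximal 1, so the sum leans on few genes. None of the list's 25 tested genes was called, and 18 had positive and 7 negative log2 fold changes. At an unadjusted p below 0.05, 5 were higher and 4 lower, against 3.86% and 14.3% of all genes. The lower count was thus near the share of all genes. The median log2 fold change was 0.54, against -0.05 over all genes. Of the 25, 10 separated the groups upwards, against 8.68% of all genes. Without primary 1, 14 were called higher and 3 lower, against 13.8% and 14.9% of all genes. The same all-gene shares apply to the lists below.

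The list includes inhibitors of Wnt signalling that are themselves targets of the pathway. Wif1, which binds Wnt ligands, stood at 4368, 704 and 1674 CPM in the primary tumours and at 5433, 5332 and 5295 CPM in the metastases (log2 fold change 1.25, SE 0.56, edgeR adjusted p = 0.282). Apcdd1, a membrane inhibitor, stood at 3200, 467 and 1198 CPM against 4442, 4305 and 3757 CPM (log2 fold change 1.36, SE 0.59, edgeR adjusted p = 0.271). Axin2, a scaffold of the complex that degrades beta-catenin, stood at 761, 360 and 542 CPM against 913, 882 and 830 CPM (log2 fold change 0.66, SE 0.26, edgeR adjusted p = 0.249). Each metastasis exceeded each primary tumour for these 3 genes, with primary 1 next below. Dkk2 and Sox9 had the opposite order. Dkk2, a secreted regulator of Wnt receptors, stood at 52.9, 1329 and 598 CPM against 40.6, 54.0 and 54.8 CPM, so that primary 1 lay among the metastases (log2 fold change -3.73, SE 0.92, edgeR adjusted p = 0.145). Sox9, a transcription factor gene, stood at 35.1, 282 and 136 CPM against 26.1, 24.0 and 47.5 CPM (log2 fold change -2.21, SE 0.66, edgeR adjusted p = 0.179).

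The lists of epithelial genes had negative median log2 fold changes. The epithelial junction list had 1 of 25 genes called lower (Klf4), 12 lower at an unadjusted p below 0.05 and a median log2 fold change of -0.93. The apical surface and mucosal list had 8 of 30 called lower, 21 lower at an unadjusted p below 0.05 and a median of -3.40. This list was drawn up with the called genes known and holds 8 of them by choice, so its count and its median are no independent evidence. The other lists, the junction list with Klf4 included, were also chosen with earlier results known and are not independent either. Neither the junction nor the apical list had a gene higher at an unadjusted p below 0.05. Without primary 1, 13 of 25 and 19 of 30 were called lower and none higher, against 14.9% and 13.8% of all genes.

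Within the junction list the members differed. Cdh1, the E-cadherin gene whose product binds beta-catenin, stood at 292, 2423 and 885 CPM in the primary tumours and at 263, 211 and 340 CPM in the metastases (log2 fold change -2.14, SE 0.64, edgeR adjusted p = 0.181). Primary 1 lay inside the proximal range for Cdh1, whereas it exceeded every metastasis for Klf4, Cldn3 and Cldn7. Cldn3 and Cldn7 were among the lower genes chosen above for groups that did not overlap, so that choice fixed their order. Over the list, primary 1 lay inside the proximal range for 13 of 25 genes, near the 52.5% of all genes. Cldn4, another claudin gene, stood at 174, 2280 and 791 CPM against 306, 133 and 224 CPM. In the apical list, Pigr, the receptor that carries IgA across epithelium, stood at 273, 4737 and 455 CPM against 4.88, 13.1 and 0.906 CPM (log2 fold change -8.18, SE 1.66, edgeR adjusted p = 0.125). Spint2, an inhibitor of membrane serine proteases, stood at 260, 1136 and 803 CPM against 216, 186 and 263 CPM.

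Luminal prostate genes were not uniformly low in the metastases. None of 19 was called, 12 were lower at an unadjusted p below 0.05 and the median log2 fold change was -1.95. The luminal keratin gene Krt8 stood at 1011, 3768 and 1508 CPM in the primary tumours and at 958, 520 and 833 CPM in the metastases (log2 fold change -1.44, SE 0.48, edgeR adjusted p = 0.203). Its partner Krt18 stood at 801, 3488 and 962 CPM against 803, 786 and 1058 CPM, so the groups overlapped. Both keratins were thus well detected in the metastases, whereas the secretory transglutaminase gene Tgm4 stood at 5.96, 55.4 and 224 CPM in the primary tumours and at 0.992, 0.536 and 0.343 CPM in the metastases (edgeR adjusted p = 0.1000). Without primary 1, 11 of the 19 were called lower and none higher, against 14.9% and 13.8% of all genes.

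Basal and squamous genes were near the limit of detection in the metastases for several members. Of 14 basal genes none was called, 10 were lower and 1 higher at an unadjusted p below 0.05, with a median of -2.60. Krt5, the basal keratin gene, stood at 15.4, 144 and 1356 CPM in the primary tumours and at 2.79, 0.817 and 1.25 CPM in the metastases (log2 fold change -8.28, SE 1.67, edgeR adjusted p = 0.125). The primary tumours thus spread over a wider range than the gap between primary 1 and the metastases. Col17a1, a hemidesmosome collagen gene, stood at 2.36, 37.9 and 242 CPM against 0.783, 0.332 and 0.685 CPM. Basal genes were not all low in the metastases. Itga6, an integrin gene, stood at 274, 272 and 552 CPM against 318, 420 and 288 CPM (log2 fold change -0.10, SE 0.30, edgeR adjusted p = 0.841). The basal list summed to 692, 1637 and 4388 CPM in the primary tumours and to 685, 899 and 708 CPM in the metastases. The squamous list had no call in 18 genes, 14 lower at an unadjusted p below 0.05 and a median of -3.99. Tgm3, a transglutaminase of cornified cells, stood at 117, 5.66 and 93.1 CPM against 0.339, 0.204 and 0.122 CPM (log2 fold change -8.32, SE 1.17, edgeR adjusted p = 0.0614). Ivl, the involucrin gene, stood at 1.05, 31.1 and 51.7 CPM against 0.131, 0.332 and 0.196 CPM. Dsp, the desmoplakin gene that other epithelia also express, stood at 659, 850 and 760 CPM against 731, 609 and 692 CPM, with overlapping groups. Without primary 1, 9 basal genes and 14 squamous genes were called lower, and 1 basal gene higher. Of all genes, 14.9% were called lower and 13.8% higher in that fit.

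**Figure D3:**
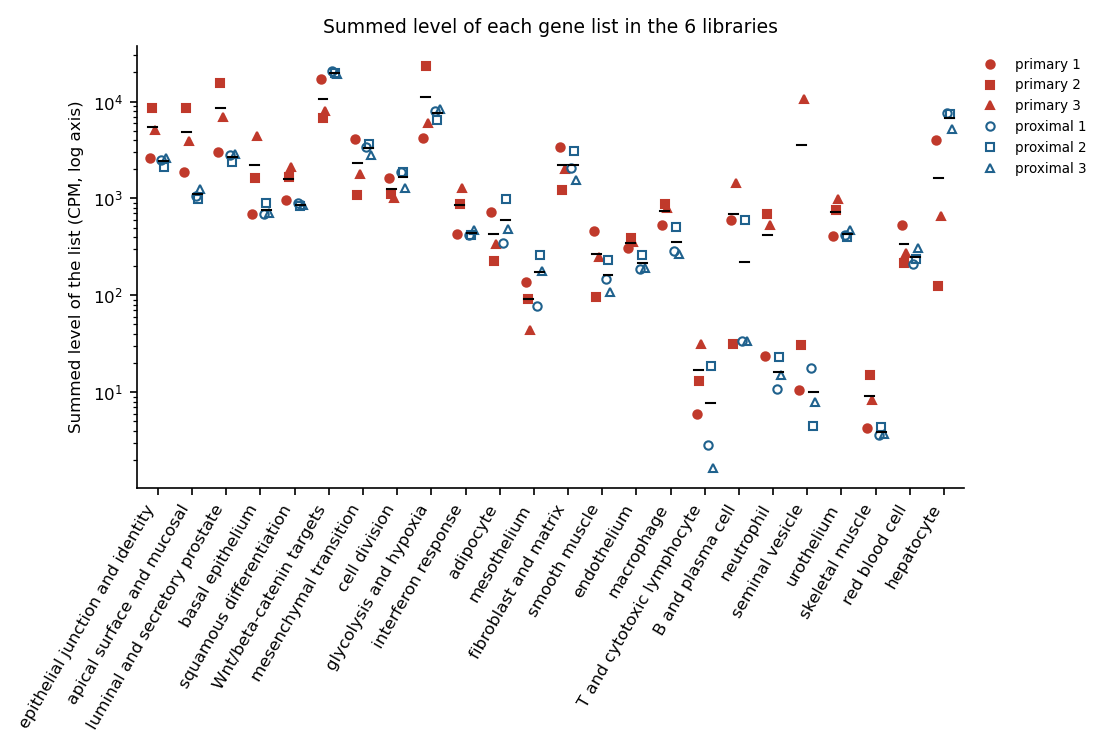
Summed level of 24 gene lists in CPM on a logarithmic axis, with filled symbols for the primary and open symbols for the proximal libraries; horizontal bars are means of the 3 libraries on the CPM scale. Primary 1 lies close to the proximal libraries for the junction list, at 2628 CPM against 2134 to 2617 CPM, and primary 3 stands alone for the seminal vesicle list, at 10566 CPM.

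Genes of mesenchymal transition gave no call: none of 18 passed the threshold, none reached an unadjusted p below 0.05, and the median was 0.33. Vim, the vimentin gene, stood at 2065, 227 and 371 CPM in the primary tumours and at 1722, 1502 and 1304 CPM in the metastases (log2 fold change 0.77, SE 0.72, edgeR adjusted p = 0.508). Primary 1 was the highest of all 6 libraries for Vim, and without it the log2 change was 2.36 (SE 0.27, edgeR adjusted p = 0.00209). Twist1, a transcription factor gene of mesenchyme, stood at 5.56, 0.781 and 1.70 CPM against 4.33, 9.29 and 8.64 CPM. S100a4, a calcium-binding protein gene, stood at 60.01, 5.94 and 34.5 CPM against 85.7, 95.6 and 71.4 CPM. Without primary 1, 4 of the 18 genes were called higher and none lower, against 13.8% and 14.9% of all genes.

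Cell division genes stood mostly above the primary mean in the metastases without passing the test. Of 27 genes none was called, and 2 were higher at an unadjusted p below 0.05, against 3.86% of all genes. Positive log2 fold changes were found for 24, and the median was 0.54. Mki67, expressed in dividing cells, stood at 201, 101 and 88.0 CPM in the primary tumours and at 254, 250 and 144 CPM in the metastases (log2 fold change 0.73, SE 0.36, edgeR adjusted p = 0.303). Tyms, which makes thymidylate, stood at 39.7, 23.5 and 21.7 CPM against 46.3, 43.2 and 37.6 CPM. Proximal 3 was the lowest metastasis for both genes and lay below primary 1. Without primary 1, 17 of the 27 were called higher and none lower, against 13.8% and 14.9% of all genes.

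The glycolysis and hypoxia list summed highest in primary 2, at 23543 CPM against 6469 to 8332 CPM in the metastases, and the interferon list in primary 3, at 1282 CPM against 416 to 473 CPM. Car9, a carbonic anhydrase induced by low oxygen, stood at 5.02, 70.4 and 32.4 CPM in the primary tumours and at 3.71, 3.52 and 3.48 CPM in the metastases (log2 fold change -3.33, SE 0.88, edgeR adjusted p = 0.155). None of the 20 glycolysis and hypoxia genes was called, with 2 lower and 1 higher at an unadjusted p below 0.05, and none of the 25 interferon genes was called, with 17 lower and none higher. Ifih1, a sensor of double-stranded RNA, stood at 10.0, 34.2 and 68.2 CPM against 2.53, 3.73 and 2.77 CPM (log2 fold change -3.64, SE 0.73, edgeR adjusted p = 0.125). Usp18, an interferon-induced protease gene, had the opposite order at 102, 45.7 and 66.1 CPM against 106, 86.8 and 169 CPM. Without primary 1, 17 interferon genes were called lower and 1 higher, and 3 glycolysis and hypoxia genes were called lower. Of all genes, 14.3% were lower at an unadjusted p below 0.05 and 14.9% were called lower without primary 1. The counts of lower glycolysis and hypoxia genes were near these shares.

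Markers of macrophages and blood vessels stood lower in the metastases beside these epithelial genes. Over all genes, 14.3% were lower and 3.86% higher at an unadjusted p below 0.05. Without primary 1, 14.9% of all genes were called lower and 13.8% higher. The macrophage list summed to 538, 886 and 806 CPM in the primary tumours and to 290, 506 and 268 CPM in the metastases, with 5 of 12 genes lower at an unadjusted p below 0.05 and none called. C1qc, a complement gene of macrophages, stood at 55.0, 93.9 and 86.0 CPM against 29.2, 46.7 and 25.6 CPM (log2 fold change -1.21, SE 0.30, edgeR adjusted p = 0.146). The endothelium list summed to 308, 390 and 354 CPM against 187, 263 and 192 CPM, with 4 of 12 genes lower. Cldn5, the claudin of blood vessels, stood at 9.13, 16.0 and 10.9 CPM against 3.37, 6.10 and 2.40 CPM. Primary 1 exceeded every metastasis in both sums, and without it 4 macrophage and 4 endothelial genes were called lower and none higher. Of 14 fibroblast and matrix genes, 2 were lower at an unadjusted p below 0.05, which is the share of all genes, and none was called. Their sums of 3366, 1214 and 1998 CPM overlapped with 2062, 3112 and 1533 CPM. Without primary 1, 1 fibroblast gene was called higher and none lower. None of 10 smooth muscle genes was called, with 3 lower and 1 higher at an unadjusted p below 0.05. Their sums of 464, 94.97 and 250 CPM in the primary tumours overlapped with 149, 232 and 108 CPM in the metastases, and without primary 1, 2 were called higher and none lower. Of the 6 libraries only primary 2 and 3 had a high neutrophil sum. That list summed to 23.8, 693 and 528 CPM against 10.7, 23.1 and 15.1 CPM, with 1 of 9 tested genes lower at an unadjusted p below 0.05, none called, and 1 called lower without primary 1. The urothelium list, of the bladder lining, summed to 409, 763 and 980 CPM against 420, 398 and 474 CPM. None of its 7 tested genes was called, 3 were lower at an unadjusted p below 0.05, and 4 were called lower without primary 1. The part of these cells in the epithelial results was not tested.

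The label of the fat was compared with adipocyte markers. The adipocyte list summed to 347, 976 and 482 CPM in proximal 1, 2 and 3 and to 720, 228 and 338 CPM in the primary tumours. The overlap came from primary 1, since primary 2 and 3 lay below all 3 metastases. None of 14 tested genes was called and 12 had positive log2 fold changes, with a median of 0.75, which was 2.14 without primary 1. Without it no adipocyte gene was called higher and 1, Pparg, was called lower. Adipoq, the adiponectin gene that defines adipocytes, stood at 5.67, 27.6 and 10.9 CPM in the metastases and at 19.2, 0.430 and 4.65 CPM in the primary tumours (log2 fold change 0.86, SE 1.84, edgeR adjusted p = 0.770). Cfd, the adipsin gene, stood at 60.2, 268 and 104 CPM against 202, 6.09 and 47.7 CPM, and its log2 fold change of 0.76 became 2.43 without primary 1 (edgeR adjusted p = 0.424). Pparg, the adipocyte transcription factor gene that epithelium also expresses, had the opposite order at 1.33, 2.76 and 1.52 CPM in the metastases against 5.50, 8.71 and 14.1 CPM in the primary tumours (edgeR adjusted p = 0.167). Adipocyte transcripts were thus present in each metastasis, and primary 1 lay within their range. The list summed to 192, 253 and 885 CPM in distal 1, 2 and 3, so a sum in the proximal range was not particular to the fat site. No gene of the list was called between the metastatic sites. Pnpla2, a list member, alone stood at 134, 168 and 155 CPM in the proximal metastases and at 155, 139 and 102 CPM in the primary tumours.

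Glands that lie near the prostate were read in the same way. The epididymis list, with no gene passing the filter on low counts, summed to at most 0.235 CPM in each metastasis and to 0.0269, 0.234 and 105 CPM in primary 1, 2 and 3. Primary 3 thus held epididymal as well as seminal vesicle transcripts. Svs2, a major secretory gene of the seminal vesicle, stood at 3.06, 8.98 and 5254 CPM in the primary tumours and at 8.83, 1.99 and 3.89 CPM in the metastases. Of the seminal vesicle list 5 of 5 tested genes were lower at an unadjusted p below 0.05, and the log2 fold change of Svs2 was -8.48 with and -0.29 without primary 3. None of the 5 was called, and all 5 were called lower without primary 1. Of all genes, 14.3% were lower at an unadjusted p below 0.05 and 14.9% were called lower without primary 1. The list summed to 30.9 CPM in primary 2 and 10566 CPM in primary 3, against at most 17.8 CPM in the metastases. Without primary 3, 2 of the 9 genes described first (Ceacam1 and Fxyd4) were still called. The part of these glands in the calls was not tested.

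Ranked by CPM per kilobase of exon, which allows genes to be compared with each other, the most abundant protein-coding genes of the metastases included genes known from the liver. Glul, which encodes glutamine synthetase and is a beta-catenin target in liver, was first at 3185 CPM per kilobase, against 2204 in the primary tumours, and one of its exons overlaps Teddm2. Alb, the serum albumin gene, was next at 2886 CPM per kilobase, against 683, followed by the ferritin gene Fth1 at 2700, Wif1 at 2206 and the translation factor gene Eef1a1 at 1712. The other 5 of the first 10 were Itm2b, Aplp2, Rplp1, Tmsb4x and Hsp90ab1, at 1178 to 1008 CPM per kilobase.

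Albumin transcripts did not come with other hepatocyte transcripts. Alb stood at 7570, 7470 and 5234 CPM in proximal 1, 2 and 3, and at 4035, 114 and 650 CPM in primary 1, 2 and 3 (log2 fold change 2.08, SE 1.01, edgeR adjusted p = 0.298). Ttr, the transthyretin gene that hepatocytes express strongly, stood at 0.235, 0.306 and 0.612 CPM in the metastases. The whole hepatocyte list summed to 7576, 7493 and 5243 CPM there, nearly all of it Alb. Without primary 1, Alb was called higher, by 4.16 on the log2 scale (SE 0.74, edgeR adjusted p = 0.00838). In distal metastases Alb stood at 6827, 5831 and 6416 CPM, with a log2 difference from the proximal ones of -0.09 (SE 0.97, edgeR adjusted p = 0.99999).

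Among the metastases, several transcripts of other tissues and of immune cells were high in proximal 2. Gkn1, a stomach mucosa gene, stood at 0.287, 135 and 0.0734 CPM in proximal 1, 2 and 3. Apoa4, an intestinal apolipoprotein gene, stood at 1.12, 44.8 and 0.0245 CPM, and Ctrb1 at 3.06, 39.0 and 0.588 CPM. Proximal 2 was thus the one library with clear levels of stomach, gut and pancreas transcripts. Jchain, which joins secreted antibodies, stood at 2.19, 63.7 and 1.96 CPM, and the B and plasma cell list summed to 33.7, 597 and 33.6 CPM. In primary 1, 2 and 3 that list summed to 601, 31.0 and 1447 CPM, so a high sum was not particular to proximal 2. Upk3b, a mesothelium marker, stood at 0.705, 23.7 and 20.1 CPM, so that proximal 1 was the low one. Proximal 2 also had the highest adipocyte, macrophage and T cell sums of the metastases. Without proximal 2 no gene was called, as without either of the other metastases. The part of such admixed transcripts in the comparison was not tested.

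**Figure D4:**
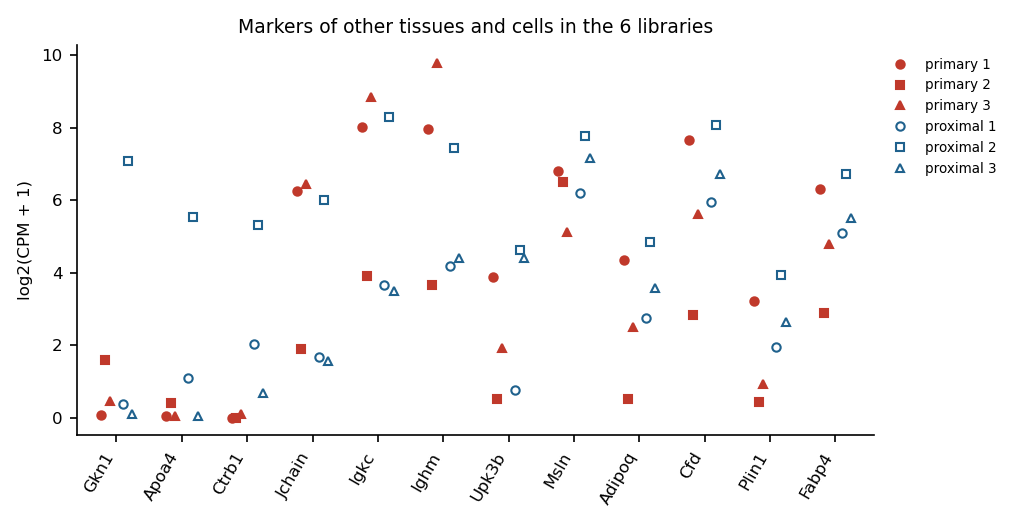
Levels of marker genes of other tissues and cells in the 3 primary (filled) and 3 proximal (open) libraries, as log2(CPM + 1) on the vertical axis, 1 symbol per library. Gkn1, Apoa4 and Jchain reach 135, 44.8 and 63.7 CPM in proximal 2 and stay at or below 2.19 CPM in the other metastases.

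Differences from the primary tumours were uneven over the chromosomes. This was examined after the values had been seen, over the 10411 tested genes of at least 10 CPM on average. Chromosome 4, which carries Klf4 and Tspan1, had a median log2 fold change of -0.26 over 636 genes, against 0.04 over all 10411, and 34.1% of its genes were lower at an unadjusted p below 0.05, against 13.2% of all. The share higher was 3.77%, against 5.11% of all. For each library, the difference of each gene from the proximal mean was taken in log2(CPM + 1). The library's own median difference over all 10411 genes was then subtracted. The median of these centred differences on chromosome 4 was 0.05 in primary 1, 0.44 in primary 2 and 0.32 in primary 3. Chromosome 8 had a median log2 fold change of -0.19 over 588 genes. Its median centred difference was 0.57 in primary 2 and -0.01 in both other primary tumours. Genes of chromosome X had a median centred difference of -0.37 in primary 2. On this scale the proximal libraries did not exceed 0.01 in size on chromosomes 4 and 8. The cause was not tested.

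**Figure D5:**
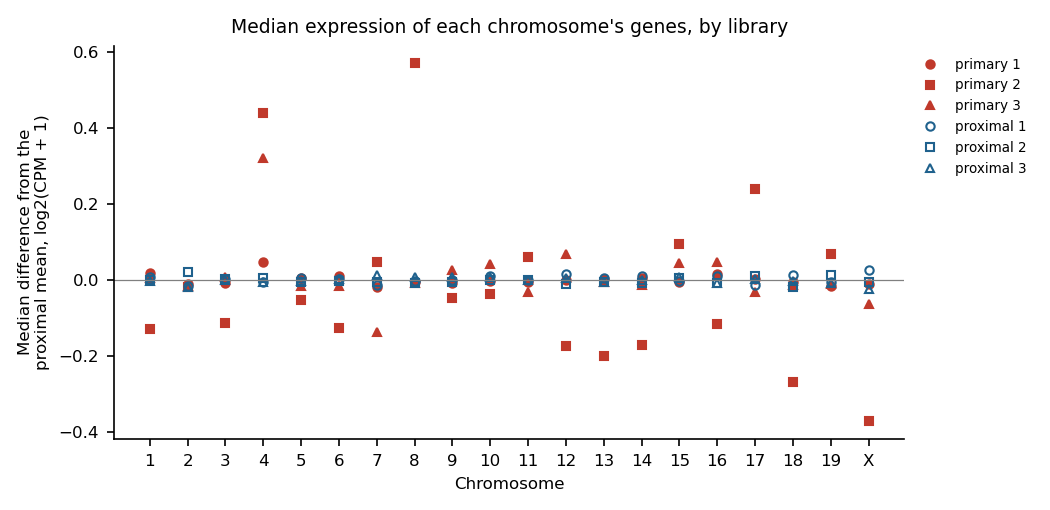
Median difference of each chromosome's genes from the mean of the proximal libraries, in log2(CPM + 1), for the 3 primary (filled) and 3 proximal (open) libraries. Each library's own median difference over all 10411 genes was subtracted first. Primary 2 and 3 stand at 0.44 and 0.32 on chromosome 4 and primary 2 at 0.57 on chromosome 8, while primary 1 stays near 0 on both.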

How the data were processed

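The authors deposited raw read counts, 1 file per library, over 47069 Ensembl genes. Per the submitters' processing notes, reads were handled with TopHat2 2.1.0, Bowtie2 2.2.6.0 and HTSeq 0.6.0 on GRCm38.p3. Strand setting and annotation release: not given in the sources used here. GENCODE M21 (GRCm38), which held 46488 of the genes, gave names and positions. Groups follow the tissue labels.

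CPM was computed with TMM scaling. edgeR 4.0.16 (filterByExpr with a minimum count of 10 and minimum total of 15, robust quasi-likelihood F-test, R 4.3.3) was run on all 9 libraries together, with 6 residual degrees of freedom. It tested 18204 genes and left out 28865. The threshold for a call was an adjusted p (Benjamini-Hochberg) under 0.05. SE was derived from the fold change and F. One dispersion per gene served all groups, although the primary libraries spread more. The script was tested on simulated data with the same dispersion in all groups, so that test did not cover this unequal spread.

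The comparison, gene lists and named genes were chosen with earlier results of these data known. Named genes were all called genes, the 10 of lowest p not called per direction (groups not overlapping, higher group at a mean of at least 10 CPM), up to 4 per list by p and level, the 8 most variable among the proximal libraries, the 10 most abundant per kilobase there, and a panel that included Ctnnb1, Axin2, Cdh1, Krt8, Krt5, Vim, Mki67 and Adipoq. Not every gene so chosen is described, and some items, among them 1 gene list, are not reported here. Alternatives were other scaling, filters and tools (DESeq2 1.42.0, voom in limma 3.58.1), the 6 compared libraries alone, and leaving out each library.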

Additional observations from a re-analysis of the deposited data

How the results depend on the processing

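The number of genes called between proximal metastases and primary tumours was 9. It was 8 with library totals alone and 9 without the mitochondrially encoded genes, CT010467.1 and Lars2. It was 15 with median-ratio size factors, 22 without robust shrinkage, 23 with a minimum of 1 CPM in 3 libraries, 26 without a filter on low counts and 37 by voom with a variance weight per group. DESeq2 called 1486 genes (1350 lower and 136 higher), limma-voom called 1, and the 6 libraries of the compared groups alone gave 0 (2026 at an unadjusted p below 0.05). Leaving out each library in turn gave 0 to 5447 genes: 5447 without primary 1, 22 without primary 2, 2 without primary 3, 1 without distal 3 and 0 without any other library. DESeq2, voom with group weights and the fit without primary 1 each kept all 9 called genes.

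Distal against proximal metastases gave 0 genes, 85 with DESeq2 (81 of them higher in distal), and 0 to 38 when each library was left out, the 38 being without distal 1. Of the 73 genes named, Itga6 not counted, 69 kept the sign of their log2 fold change in every setting. The exceptions reversed without 1 library. Over the fits that left one out, Krt18 ranged from -1.31 to 0.00037 and Hsp90ab1 from -0.53 to 0.061, both highest without primary 2. Cfd ranged from -0.0501 to 2.43 and Gkn1 from -2.10 to 7.76, both lowest without proximal 2. Itga6 ranged from -0.28 to 0.33 over the same fits. The cause was not tested.

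No paired analysis was possible because the labels do not say which samples share a mouse and the sample names carry no shared replicate number. A gene that missed the threshold is not shown to be equal between the groups, since each held 3 libraries of unequal spread. At the scaled depths, genes with few counts in the metastases, such as Atp12a with 3, carry wide counting intervals.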
